A study of Mus musculus with 16 samples.

Results

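A set of 40 genes of DNA replication and mitosis were followed in mouse brain at embryonic day 18, on 8 arrays of HeCo mutants and 8 arrays of wild-type controls. The genes were listed by name and comprise 16 that act in S-phase, 22 that act in G2 or mitosis (G2/M) and the 2 D-type cyclins Ccnd1 and Ccnd2 of G1. HeCo (heterotopic cortex) mice are mutant for Eml1, whose product binds microtubules, and form a band of misplaced neurons under the cortex. Both groups are of the strain NOR/CD-1, and total RNA of brain was hybridised to single-colour Illumina bead arrays as biotin-labelled cRNA. The labels do not say which parts of the brain were taken or that each sample is a separate animal, so the p-values measure only the spread between these samples. Samples are called here by genotype and title number, which runs from 5 to 8 and 13 to 16 in HeCo and from 1 to 4 and 9 to 12 in wild type.

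Of the 40 genes, 38 had an annotated probe, and 28 of 10624 genes tested were measured, meaning that at least 1 probe was detected (detection p under 0.05) on 8 or more of the 16 arrays. These were 14 S-phase genes, 12 G2/M genes and both D-type cyclins. Of the measured genes, 26 were detected on all 16 arrays. Pcna was detected on 6 HeCo and 4 wild-type arrays and Cenpf on 7 HeCo and 8 wild-type arrays. No probe was annotated to Mki67 or Ccnb1. The remaining 10 genes (Gmnn, Hells, Ccna2, Ccnb2, Cks2, Ube2c, Pttg1, Bub1, Cenpe and Racgap1) had 12 probes, none of which was detected on any array. A probe without signal can be a probe that works poorly, and 10 measured genes also had a probe that was detected on no array (14 probes together), so these 10 genes are given no level.

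A cell copies its DNA in S-phase, after the replicative helicase has been loaded in G1, and divides the copies in mitosis under the control of cyclin B and Cdk1. Transcripts of the replication machinery accumulate around the start of S-phase through E2F factors, and those of mitotic genes accumulate later, through the DREAM and MuvB complexes, B-Myb and FoxM1. In the fetal brain such transcripts come from dividing cells, among them the radial glia that line the ventricles and the intermediate progenitors of the cortex, while most neurons have left the cycle. In bulk tissue fewer dividing cells and less of a transcript per cell cannot be told apart.

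Promoter sequence was at hand for 33 of the 40 genes, 20 of G2/M and 13 of S-phase (RefSeq, GRCm38.p6). Those of 5 genes are shown because they hold the letters that are commonly described in promoters of either phase. Each runs over the 160 bases before the annotated start, 5′ to 3′ on the gene's strand. Capitals mark the CHR motif (TTTGAA or TTCGAA), the CCAAT box (CCAAT) and E2F-type letters (TTTGGCGC, TTTCGCGC, TTTCCCGC or TTTGCCGC). Each was searched on both strands, so that ATTGG and TTCAAA stand for CCAAT and TTTGAA on the opposite strand. In Mcm5 the E2F-type letters of both strands overlap each other, and so do the first ones of Mcm6.
Cdk1 (chr10:69352913-69353072, minus strand): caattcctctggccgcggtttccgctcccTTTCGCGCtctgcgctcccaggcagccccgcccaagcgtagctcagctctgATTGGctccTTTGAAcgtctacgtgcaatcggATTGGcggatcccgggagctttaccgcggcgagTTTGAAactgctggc
Cdc20 (chr4:118437344-118437503, minus strand): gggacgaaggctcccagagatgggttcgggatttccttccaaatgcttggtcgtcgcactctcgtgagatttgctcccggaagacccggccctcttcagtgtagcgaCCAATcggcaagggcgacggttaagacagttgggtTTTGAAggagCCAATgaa
Top2a (chr11:99024190-99024349, minus strand): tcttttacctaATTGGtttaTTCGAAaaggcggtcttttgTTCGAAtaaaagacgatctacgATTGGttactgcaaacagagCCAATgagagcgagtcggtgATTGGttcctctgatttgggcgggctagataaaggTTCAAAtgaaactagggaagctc
Mcm6 (chr1:128359706-128359865, minus strand): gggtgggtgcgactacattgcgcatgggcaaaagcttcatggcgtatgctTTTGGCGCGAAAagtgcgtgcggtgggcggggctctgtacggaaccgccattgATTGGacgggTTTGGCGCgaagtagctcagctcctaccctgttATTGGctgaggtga
Mcm5 (chr8:75109349-75109508, plus strand): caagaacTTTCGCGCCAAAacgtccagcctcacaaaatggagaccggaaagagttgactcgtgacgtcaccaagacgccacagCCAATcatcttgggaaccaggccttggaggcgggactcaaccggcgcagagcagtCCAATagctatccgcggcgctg
A gene was counted for a motif if any of its promoters held it. Over the 250 bases before the start, the CHR letters were found in 9 of 20 G2/M genes (45%), 2 of 13 S-phase genes (15.4%) and 19.6% of all 27025 genes with a promoter. The CCAAT box was found in 17 of 20 G2/M genes (85%), 9 of 13 S-phase genes (69.2%) and 37.5% of all genes. Both motifs stood together in 9 of 20 G2/M genes (45%), 2 of 13 S-phase genes (15.4%) and 7.93% of all genes. The E2F-type letters were found in 1 of 20 G2/M genes (5%), that gene being Cdk1, in 5 of 13 S-phase genes (38.5%) and in 2.16% of all genes. These matches describe the letters and not bound sites.

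The samples carried the marks of brain. Of 10 markers of postmitotic neurons 7 were detected on all arrays, and of 9 cortical markers 6 had a probe and all 6 were detected on all arrays. The brighter Eml1 probe was detected on 0 of 8 HeCo arrays and 8 of 8 wild-type arrays. Its mean log2 signal was 4.51 ± 0.08 in HeCo and 8.51 ± 0.15 in wild type (SD, n = 8 each). The other Eml1 probe went the opposite way, with detection on 8 of 8 HeCo arrays and 0 of 8 wild-type arrays and means of 6.51 ± 0.37 in HeCo and 4.57 ± 0.09 in wild type (SD, n = 8 each). Between 17694 and 19553 of 45281 probes were detected per array, and the number of arrays limits the precision. Among the 8 HeCo arrays, HeCo 7 and HeCo 16 stood apart from all others in markers of the diencephalon, midbrain and hindbrain, so values without them are given beside results that change.

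No replication or mitosis gene differed between HeCo and wild type beyond the spread between samples. Of the 28 measured genes, 0 passed an adjusted p of 0.05 in limma, where 6 of 10624 genes (0.0565%) did, 4 of them higher (0.0377%) and 2 lower (0.0188%) in HeCo. Of the 47 kept probes of these genes, 0 passed when adjusted over all probes, where 16 of 18532 (0.0863%) did. At an unadjusted p under 0.05 in limma, 0 of the 28 passed, against 749 of all genes (7.05%). In none of the 28 were the arrays of the genotypes separate, against 12 of all genes (0.113%). The differences in normalized log2 signal (HeCo minus wild type) ran from -0.15 for Ccnd1 to 0.17 for Ccne2. With a median SE of 0.10, differences of this size are within the error of 8 arrays per group. Of 28 genes 22 (78.6%) were higher in the mean of HeCo, against 48.1% of all genes, and the median was 0.05 for the 28 and -0.0052 for all genes. With arrays scaled to the same median, 26 of 28 were higher, as was the median of all genes (0.05). The count changed with the arrays used, and without HeCo 7 and HeCo 16 12 of 28 were higher and the median was -0.03. The means of the S-phase and G2/M genes were highest on these arrays, so leaving them out lowers the HeCo side. Wild type 4 and wild type 10, where these means were lowest, were kept in that comparison.

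**Figure D1:**
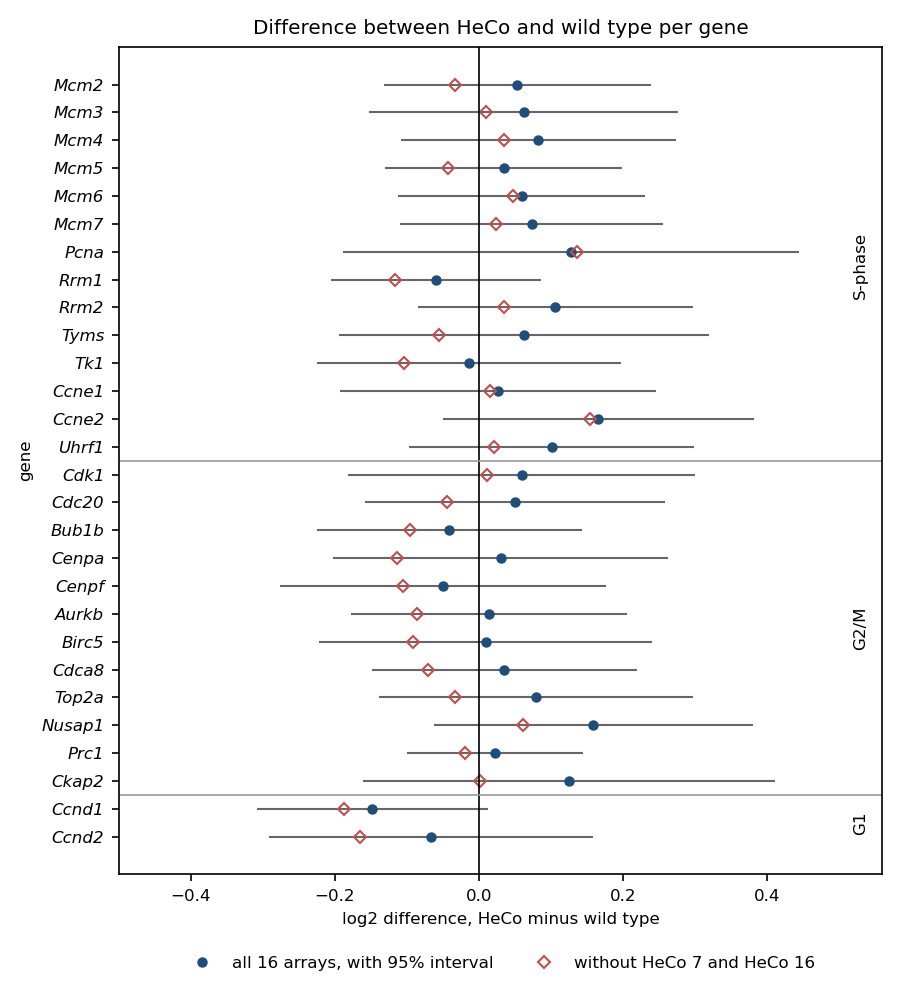
Log2 difference in normalized signal, HeCo minus wild type (horizontal axis), for each of the 28 measured genes, grouped by phase. Filled points with 95% intervals are from all 16 arrays and open diamonds are without HeCo 7 and HeCo 16. All 28 intervals include 0, and 9 of the 12 diamonds of G2/M genes lie left of 0.

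The helicase that unwinds DNA at the fork is a ring of Mcm2 to Mcm7, and all 6 subunits had a small positive difference, from 0.03 (Mcm5) to 0.08 (Mcm4). Mcm4 had log2 signals of 10.72, 10.87 and 11.20 in HeCo (lowest, median and highest of 8) and 10.30, 10.90 and 11.03 in wild type. The groups overlapped, and the mean of wild type was lowered by 1 low array, wild type 10. The difference of Mcm4 was 0.08 (SE 0.09, limma adjusted p = 0.869), and it was 0.0059 without wild type 10 and 0.035 without HeCo 7 and HeCo 16. Without HeCo 7 and HeCo 16 the differences of Mcm3, Mcm4, Mcm6 and Mcm7 ran from 0.0095 to 0.05, and those of Mcm2 and Mcm5 were -0.03 and -0.04.

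Pcna, the sliding clamp that holds DNA polymerases on the template, varied more between arrays than 96.7% of all genes. Its log2 signals were 4.76, 5.16 and 5.68 in HeCo and 4.62, 5.03 and 5.52 in wild type (lowest, median, highest). The probe was dim and undetected on 6 of the 16 arrays, and the groups overlapped over nearly their whole range. The difference was 0.13 (SE 0.15, limma adjusted p = 0.886).

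Ribonucleotide reductase (Rrm1, Rrm2), thymidylate synthase (Tyms) and thymidine kinase (Tk1) supply the deoxynucleotides of S-phase. Of these 4 genes, 2 had a positive and 2 a negative difference. Rrm2 had log2 signals of 7.74, 8.05 and 8.33 in HeCo and 7.67, 7.86 and 8.22 in wild type (difference 0.11, SE 0.09, limma adjusted p = 0.849). Its other kept probes had differences of -0.04 and -0.0063, so the probes did not share a sign. The probe with -0.0063 was dim and detected on 4 HeCo and 4 wild-type arrays. The brightest probe of Rrm2 had 0.035 (SE 0.09) without HeCo 7 and HeCo 16. Tyms had 8.47, 8.73 and 9.39 in HeCo and 8.26, 8.82 and 8.99 in wild type. The HeCo median of Tyms was thus below that of wild type although the mean was above it, since HeCo 16 was the highest array. The difference of Tyms was 0.06 (SE 0.12, limma adjusted p = 0.928), or -0.055 (SE 0.11) without HeCo 7 and HeCo 16, and its other kept probes had -0.02 and 0.21. The probe with 0.21 was dim and detected on 7 HeCo and 5 wild-type arrays. Tk1 had 7.43, 7.53 and 8.02 in HeCo and 7.32, 7.73 and 7.85 in wild type (difference -0.01, SE 0.10, limma adjusted p = 0.982). The difference of Tk1 was -0.10 (SE 0.10) without HeCo 7 and HeCo 16. The groups overlapped for Rrm2, Tyms and Tk1 alike. The second kept probe of Tk1 had a difference of 0.05 and a correlation of -0.37 with the first over 16 arrays, group means removed. This second probe was dim, with mean log2 signals of 5.27 in HeCo and 5.23 in wild type, against 7.69 and 7.70 for the first. Rrm1 had a difference of -0.06 (SE 0.07), and -0.12 (SE 0.07) without HeCo 7 and HeCo 16.

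E-type cyclins activate Cdk2 at the start of S-phase. Ccne2 had the largest difference of the S-phase genes, with log2 signals of 6.15, 6.23 and 6.55 in HeCo and 5.72, 6.12 and 6.48 in wild type. Every HeCo array was above the wild-type median, but only HeCo 5 was above the highest wild-type array. The difference was 0.17 (SE 0.10, 95% interval -0.05 to 0.38, limma adjusted p = 0.778), and it was 0.15 (SE 0.12) without HeCo 7 and HeCo 16. Ccne1 differed by 0.03 (SE 0.11). Uhrf1 recruits the maintenance methyltransferase to newly copied DNA. It had 9.88, 10.12 and 10.47 in HeCo and 9.60, 10.00 and 10.28 in wild type. Here too wild type 10 was lowest and HeCo 7 highest, and the groups overlapped. The difference of Uhrf1 was 0.10 (SE 0.10, limma adjusted p = 0.855), and it was 0.020 (SE 0.09) without HeCo 7 and HeCo 16 and 0.039 without wild type 10.

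Among the G2/M genes, 10 of 12 had a positive difference, from -0.05 (Cenpf) to 0.16 (Nusap1). Cdk1, the kinase that drives entry into mitosis, had log2 signals of 8.40, 8.75 and 9.01 in HeCo and 8.25, 8.67 and 9.07 in wild type. Wild type held both the lowest and the highest array, and the difference was 0.06 (SE 0.12, limma adjusted p = 0.926), or 0.012 (SE 0.13) without HeCo 7 and HeCo 16. Cdc20, the activator of the anaphase-promoting complex, had 9.56, 9.91 and 10.23 in HeCo and 9.51, 9.99 and 10.10 in wild type. The ranges overlapped and the HeCo median was the lower one. Its 4 kept probes had differences of 0.05, -0.01, 0.03 and 0.11, and they correlated over arrays at r of 0.63 to 0.83. The brightest had -0.045 (SE 0.10) without HeCo 7 and HeCo 16. The spindle checkpoint kinase Bub1b had a difference of -0.04 (SE 0.09), with 1 high array, HeCo 7, and -0.095 (SE 0.08) without HeCo 7 and HeCo 16.

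At the kinetochore, Cenpa, the histone variant that marks the centromere, had log2 signals of 10.68, 10.90 and 11.45 in HeCo and 10.59, 10.97 and 11.33 in wild type. The difference was 0.03 (SE 0.11, limma adjusted p = 0.963), and it was -0.11 (SE 0.09) without HeCo 7 and HeCo 16, the arrays with the highest Cenpa signals in HeCo. Cenpf differed by -0.05 (SE 0.11), with its lowest signal on HeCo 5, and by -0.11 (SE 0.12) without HeCo 7 and HeCo 16. The chromosomal passenger complex corrects faulty attachments of chromosomes to the spindle, and its measured members Aurkb, Birc5 and Cdca8 differed by 0.01, 0.0096 and 0.04. They differed by -0.087, -0.091 and -0.071 without HeCo 7 and HeCo 16. Birc5, also called survivin, had 8.28, 8.62 and 9.12 in HeCo and 8.32, 8.72 and 8.89 in wild type. The HeCo arrays of Birc5 spanned a wider range than the wild-type arrays, on both sides. Its 3 kept probes agreed over the arrays (r of 0.88 to 0.94) and had differences of 0.0096, 0.03 and -0.06.

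Top2a untangles the sister chromatids. It had log2 signals of 8.30, 8.65 and 9.19 in HeCo and 8.37, 8.65 and 8.76 in wild type. The medians were alike, and HeCo 7 was the highest array. The difference was 0.08 (SE 0.11, limma adjusted p = 0.899), and it was -0.03 (SE 0.09) without HeCo 7 and HeCo 16. Nusap1, which bundles spindle microtubules at the chromosomes, had 8.91, 9.17 and 9.56 in HeCo and 8.57, 9.07 and 9.30 in wild type. The groups overlapped, with HeCo 16 highest and wild type 10 lowest of all. Its difference of 0.16 (SE 0.11, limma adjusted p = 0.792) was the largest of the G2/M genes. The second kept probe of Nusap1, dim and detected on 6 HeCo and 5 wild-type arrays, had 0.06 (SE 0.12). The difference of Nusap1 was 0.061 (SE 0.10) without HeCo 7 and HeCo 16. Ckap2, a spindle-associated protein, had 7.47, 7.63 and 8.21 in HeCo and 6.95, 7.59 and 8.21 in wild type (difference 0.13, SE 0.14, limma adjusted p = 0.866). Its highest array was HeCo 16, almost level with wild type 1, and its difference was 0.0020 without HeCo 7 and HeCo 16. Prc1, which bundles the midzone microtubules, differed by 0.02 (SE 0.06), and by -0.020 (SE 0.06) without HeCo 7 and HeCo 16. It varied least of the 28 genes between arrays, only 4.25% of all genes varying less.

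The D-type cyclins link outside signals to the exit from G1, and both had negative differences. Ccnd1 had log2 signals of 9.54, 9.81 and 10.05 in HeCo and 9.83, 9.95 and 10.11 in wild type. The ranges overlapped, with 5 of 8 HeCo arrays below every wild-type array. The difference was -0.15 (SE 0.08, 95% interval -0.31 to 0.01, limma adjusted p = 0.728), and the other kept probes of Ccnd1 had -0.12 (SE 0.09) and -0.09 (SE 0.08). The 3 kept probes did not all vary together over the arrays, with r from -0.24 to 0.75, group means removed. Without HeCo 7 and HeCo 16 the limma fit gave Ccnd1 a difference of -0.19 (SE 0.08, unadjusted p = 0.0309, limma adjusted p = 0.884). It was then the only gene of the 28 under an unadjusted p of 0.05, where 5.4% of all genes were. Ccnd2 had 9.67, 9.82 and 10.51 in HeCo and 9.55, 10.01 and 10.19 in wild type, with HeCo 7 far above the other HeCo arrays. Its difference was -0.07 (SE 0.11, limma adjusted p = 0.917), and it was -0.17 (SE 0.09, adjusted p = 0.884) without HeCo 7 and HeCo 16.

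**Figure D2:**
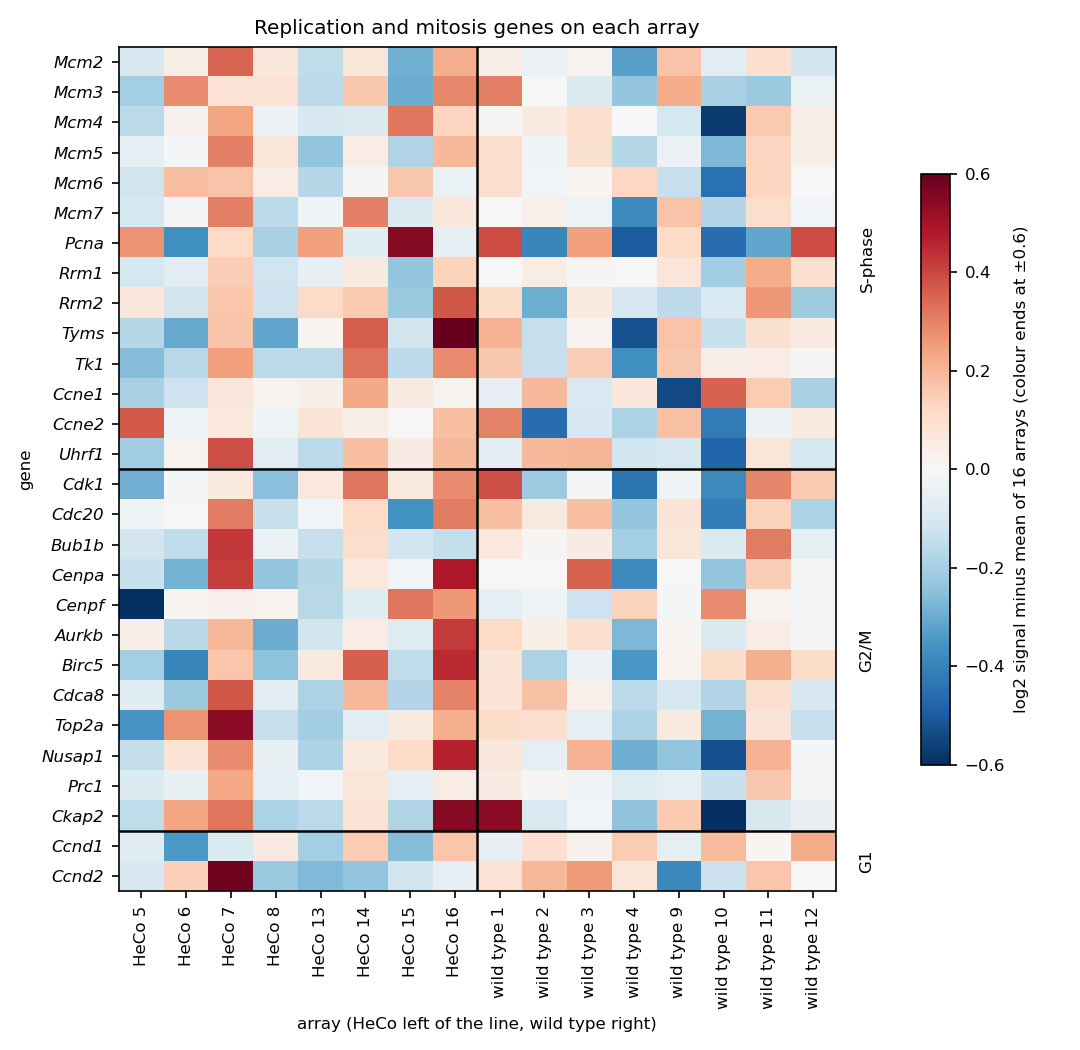
Normalized log2 signal of each of the 28 measured genes on each of the 16 arrays, as the deviation from that gene's mean over all arrays (colour, red higher and blue lower). HeCo arrays are on the left and wild-type arrays on the right, and genes run down the page by phase. Columns HeCo 7 and HeCo 16 are mostly red and columns wild type 4 and wild type 10 mostly blue, in both phases.

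The S-phase and the G2/M genes were set against each other. The median difference between HeCo and wild type was 0.06 over 14 S-phase genes, of which 12 were higher, and 0.03 over 12 G2/M genes, of which 10 were higher. The S-phase median exceeded the G2/M median by 0.03, a gap that ran from 0.0066 (without HeCo 6) to 0.058 (without wild type 9) with 1 array left out. It was -0.0097 within description numbers 9 to 16. Without HeCo 7 and HeCo 16 the medians were 0.02 for S-phase genes (9 of 14 higher) and -0.06 for G2/M genes (3 of 12 higher), a gap of 0.08. On single arrays the S-phase mean minus the G2/M mean was -0.12, 0.018 and 0.11 in HeCo (lowest, median and highest) and -0.071, -0.0070 and 0.029 in wild type. The 2 negative HeCo arrays were HeCo 7 (-0.078) and HeCo 16 (-0.12), and the other 6 lay between 0.0095 and 0.11 with a mean of 0.047, against a wild-type mean of -0.011. The groups overlapped with and without these arrays, and the gap was not tested. Within genotypes the G2/M mean varied more between arrays (SD 0.16) than the S-phase mean (SD 0.12). The 2 arrays left out had the highest means of both phases. Wild type 11, with the highest G2/M mean of wild type and a value of -0.071, was kept. Whether the unequal spread of the phases accounts for the gap was not tested.

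On single arrays the phases moved together, and the arrays within a genotype differed more than the genotypes did. The mean deviation of the 14 S-phase genes from their average over all arrays was -0.07, -0.04 and 0.20 in HeCo (lowest, median and highest array) and -0.22, 0.0065 and 0.11 in wild type. That of the 12 G2/M genes was -0.18, -0.05 and 0.30 in HeCo and -0.22, -0.01 and 0.14 in wild type. The high end in HeCo was HeCo 7 (S-phase 0.20, G2/M 0.28) and HeCo 16 (0.19 and 0.30), and the low end in wild type was wild type 4 (-0.19 and -0.22) and wild type 10 (-0.22 for both). Of the 28 genes, 27 were above the wild-type mean on HeCo 7 and 25 on HeCo 16, against 4 on HeCo 5. The highest HeCo array was HeCo 7 or HeCo 16 for 19 of 28 genes, made up of 7 of 14 S-phase genes, 10 of 12 G2/M genes and both D-type cyclins. Wild type 4 or wild type 10 was the lowest wild-type array for 22 of 28 genes, made up of 11 S-phase and 11 G2/M genes and neither D-type cyclin. Both pairs of arrays stand at the ends of the means of these same genes, so the counts are no separate result. The matching shares over all genes were not taken.

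HeCo 7 and HeCo 16 also stood apart in markers of brain regions. The mean deviation of 21 measured markers of the diencephalon, midbrain and hindbrain (of 30 listed) was -1.84 on HeCo 7 and -1.50 on HeCo 16. It reached at most 0.31 in HeCo and ran from -0.17 to 0.50 in wild type. The 6 cortical markers had their highest means on the same arrays, at 0.63 and 0.27. So had the 7 measured markers of ganglionic eminence precursors (0.36 and 0.29) and the 9 of intermediate progenitors (0.25 and 0.24). On wild type 4 and wild type 10, where replication and mitosis genes were lowest, the markers of other brain regions were at 0.42 and 0.41 and the cortical markers at -0.17 and -0.21. Some of the other arrays followed this pairing and some did not. HeCo 5 followed it, with region markers at 0.22, cortical markers at -0.06, S-phase genes at -0.07 and G2/M genes at -0.18. So did HeCo 13, with 0.16, -0.20, -0.05 and -0.10 in the same order. Wild type 12 and wild type 11 did not. Wild type 12 had the highest mean of the region markers (0.50) and the lowest of the cortical markers (-0.31), with S-phase genes at -0.00036 and G2/M genes at -0.025. Wild type 11 had region markers at 0.41 and the highest G2/M mean of wild type (0.14). When the mean of the diencephalon, midbrain and hindbrain markers on each array was added to the limma fit as a covariate, a choice made after seeing the data, 9 of 28 genes were higher in HeCo, the medians were -0.0029 for S-phase and -0.09 for G2/M genes (a gap of 0.084), and 0 of the 28 passed. Whether the tissue taken accounts for the differences between arrays was not tested.

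**Figure D3:**
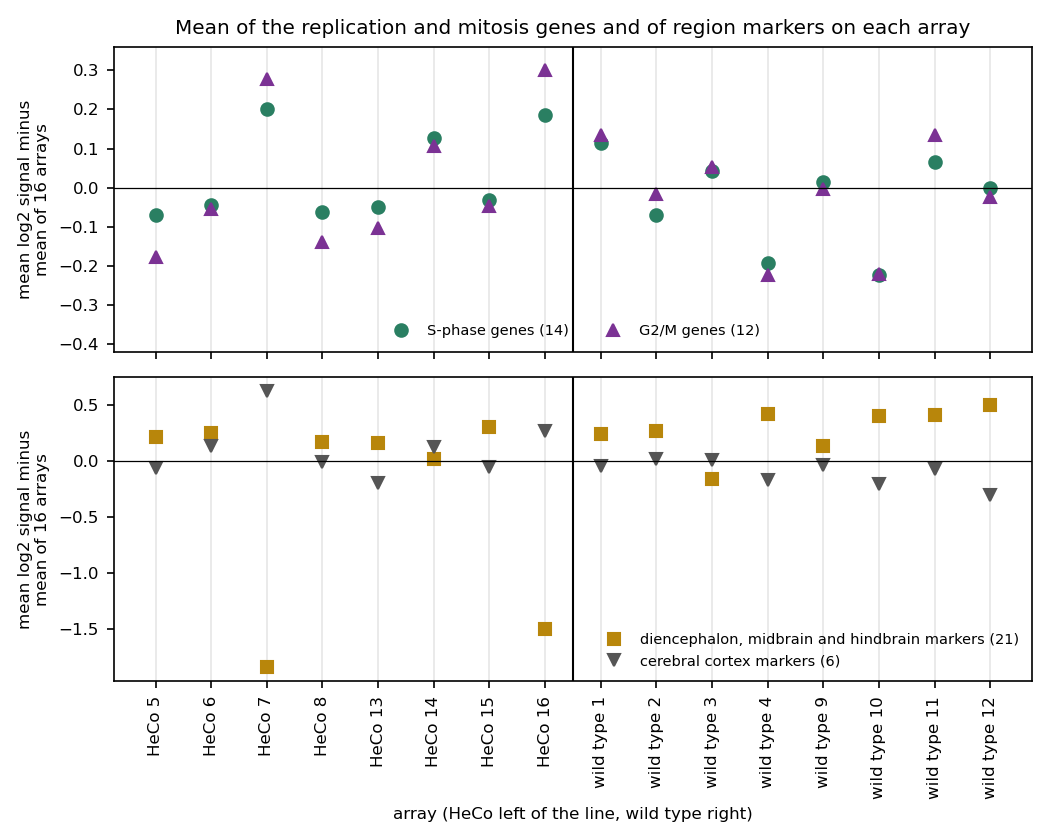
Mean deviation of log2 signal from the average over all 16 arrays, per array, HeCo left and wild type right. The upper panel shows the 14 S-phase genes (circles) and the 12 G2/M genes (triangles), and the lower panel shows markers of the diencephalon, midbrain and hindbrain (squares) and of the cerebral cortex (triangles pointing down). HeCo 7 and HeCo 16 are highest in the upper panel, with squares at -1.84 and -1.50 in the lower one.

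The genes varied together across arrays, more so in G2/M than in S-phase. After group means were removed, the median Pearson's r over 16 arrays was 0.59 for the 66 pairs of G2/M genes, 0.52 for the 168 pairs of an S-phase with a G2/M gene and 0.32 for the 91 pairs of S-phase genes. Over all pairs of tested genes it was 0.00053. An r over 0.5 was reached by 65.2% of G2/M pairs, 51.8% of mixed pairs and 35.2% of S-phase pairs, against 7.45% of all pairs. All pairs share the same arrays and their RNA quality and tissue make-up, and these values describe the arrays without a test. Without HeCo 7 and HeCo 16 the medians were 0.53, 0.40 and 0.29. They were 0.60, 0.55 and 0.33 among the 8 HeCo arrays alone and 0.64, 0.50 and 0.37 among the 8 wild-type arrays alone, in the same order of pairs. The dimmest measured genes were Pcna, Ccne1 and Ccne2 of S-phase and Cenpf of G2/M. Whether dim signal accounts for the lower r of S-phase pairs was not tested.

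The S-phase genes varied in how closely they followed the mitotic genes. Mcm5 had a median r of 0.71 with the G2/M genes, Uhrf1 0.66, Mcm7 0.65 and Tyms 0.63. At the other end stood Pcna (0.14), Ccne2 (0.24) and Ccne1 (-0.03). These genes and Cenpf had the lowest mean log2 signals of the measured genes, from 5.06 (Pcna, wild type) to 6.26 (Ccne2, HeCo). Mcm4 and Mcm6 correlated with each other at 0.85 and Pcna with Ccne2 at 0.65, each being the other's highest partner (these and the following pairs were named after their values were seen). In G2/M, Cenpf stood alone with a median r of 0.02 with the other G2/M genes, while the passenger kinase Aurkb correlated best with Cenpa (0.89) and Birc5 with Tyms (0.92). Of the D-type cyclins, Ccnd2 had a median r of 0.44 with the G2/M genes and Ccnd1 of 0.03.

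**Figure D4:**
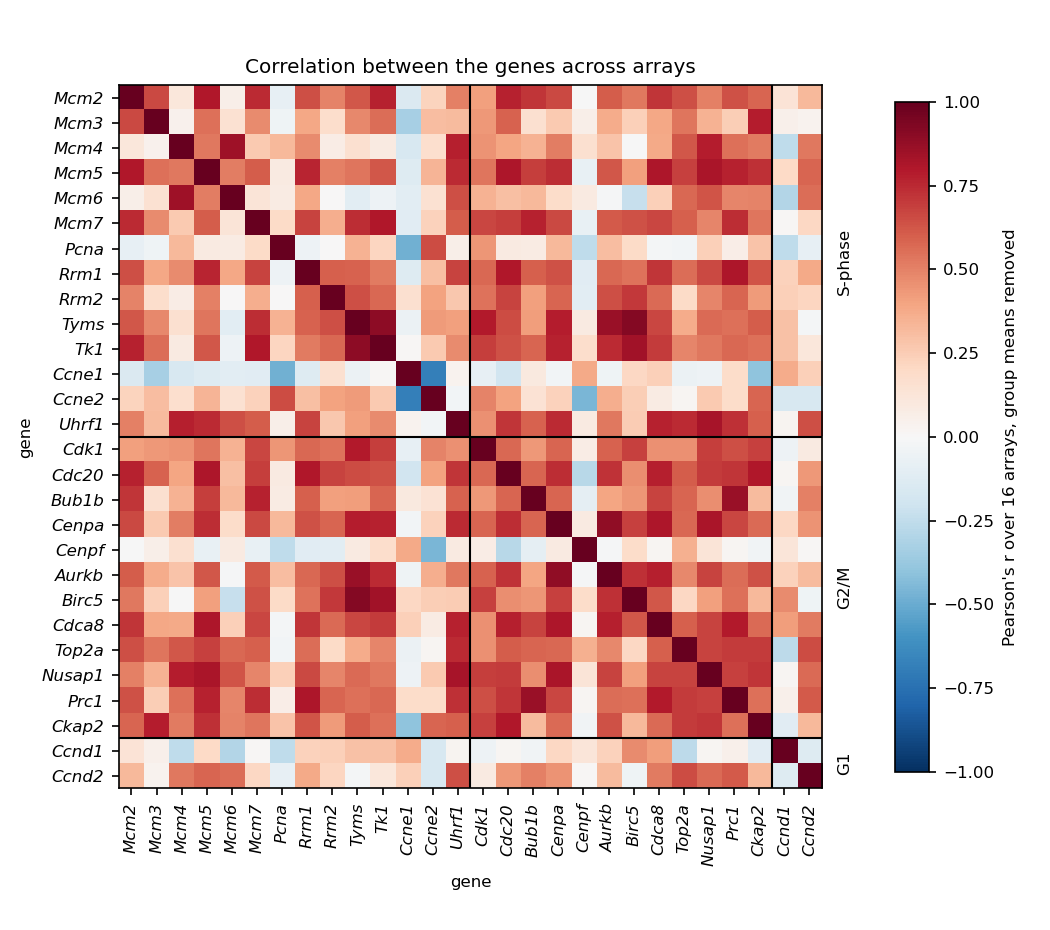
Pearson's r between the 28 measured genes over 16 arrays after removal of the group means (colour, red positive and blue negative), genes ordered by phase on both axes. The block of G2/M genes is mostly red, with a median of 0.59. The rows of Pcna, Ccne1, Ccne2, Cenpf and Ccnd1 are mostly paler. Exceptions among them include Ccne1 with Ccne2 (-0.68) and Pcna with Ccne2 (0.65).

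The spread of these genes within a genotype was above that of the median gene for 19 of 28 (9 of 14 S-phase, 9 of 12 G2/M and 1 of 2 D-type cyclins). Their median SD was 0.21, against 0.18 for all genes. Pcna, Ckap2 and Tyms varied most, with SDs of 0.34, 0.32 and 0.28, higher than 96.7%, 94.9% and 90.6% of all genes.

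Further genes of the same pathways gave no call either. Of 45 other measured replication genes 31 had a positive difference (median 0.07) and of 47 other mitosis genes 25 (median 0.01), with 0 past the threshold in each. The deubiquitinase Usp1, which acts on Pcna, had the smallest p of the replication genes (0.22, SE 0.09, limma adjusted p = 0.692), followed by the replication repair factor Mms22l (0.18, SE 0.10, adjusted p = 0.729). Of the mitosis genes, the cohesin protector Sgo2a (0.18, SE 0.09) and the depolymerizing kinesin Kif2c (-0.14, SE 0.08) had the smallest p-values (limma adjusted p = 0.728 each). Of 17 regulators of the step from G1 to S-phase 10 were positive, among them the retinoblastoma gene Rb1 (0.22, SE 0.08, limma adjusted p = 0.622) and the E2F partner Tfdp1 (0.17, SE 0.08, adjusted p = 0.705). Of 17 cell cycle brakes 11 were negative (median -0.06). The antiproliferative genes Tob2 (-0.36, SE 0.10, limma adjusted p = 0.341) and Tob1 (-0.24, SE 0.08, adjusted p = 0.542) had the smallest p-values there, and neither passed.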

How the data were processed

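The deposited table gives intensities on a linear scale, with detection p-values, for 45281 probes on every array. In these deposited intensities no background subtraction or normalization was visible. Per the submitters' processing notes GenomeStudio was used, its version not being given in the sources used here. The authors' series matrix, with deposited intensities that match a quantile normalization, served as an alternative.

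In R 4.3.3 with limma 3.58.1, signals were corrected, quantile-normalized and put on the log2 scale with neqc (offset 16). A probe was kept where detected on 8 or more arrays at p under 0.05 (18532 probes), and the brightest kept probe stood for each gene. Symbols came from the platform annotation and RefSeq (GRCm38.p6). The genotypes were compared with lmFit and eBayes (mean-variance trend), with Benjamini-Hochberg adjustment over 10624 genes and two-sided p-values, and the steps were tested on simulated data. The offset shrinks differences of dim genes. Group and number came from the titles. What the numbers stand for is not given, and their runs by group cannot be told apart from genotype. Plots used Python 3.11.15 and matplotlib 3.10.9.

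The genes, phases and lists were chosen with earlier results of these data known. Values on arrays are given for the genes with the 4 smallest p-values and the 3 largest SDs of each phase and those with probes of opposite sign, and 2 genes with the smallest p-values are named from each other list. Alternatives covered background, scaling, filter, probe choice, array weights, lower and higher title or description numbers, arrays left out and a region covariate.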

Additional observations from a re-analysis of the deposited data

Results flagged for a closer look

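Among 64 groups of 8 arrays checked (28 genes and 4 class values in both genotypes), 5 held an array far from the others, where chance gives about 1 in 20 groups. Wild type 10 was low for 3 S-phase genes. Its log2 signal was 10.30 for the helicase subunit Mcm4 (10.78 to 11.03 on the other wild-type arrays), 8.46 for Mcm6 (8.77 to 9.04) and 9.60 for Uhrf1 (9.96 to 10.28). HeCo 7 was high for the checkpoint kinase Bub1b, with 8.16 (7.59 to 7.85 on the other HeCo arrays). The mean deviation of the D-type cyclins was -0.22 on wild type 9 (0.02 to 0.15 on the other wild-type arrays). The causes were not tested.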

How the results depend on the processing

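No replication or mitosis gene passed under any alternative run, arrays left out in turn included. The number of all genes past the threshold, 6 in limma, was 10 with the mean of a gene's kept probes, 1 and 2 within title numbers 1 to 8 and 9 to 16, 2 and 1 within description numbers 1 to 8 and 9 to 16, and 2 to 7 with 1 array left out. Under the remaining alternatives the number of all genes past the threshold ran from 5 to 9. Of the 6 in the main fit, 4 were higher in HeCo. This count was 5 after scaling to the same median, without the mean-variance trend, with array weights and with the region covariate. It was 7 with the mean of a gene's kept probes. It was 3 without the filter on dim probes and with the lower and higher description numbers as a block. The count higher in HeCo was 0 and 1 within title numbers 1 to 8 and 9 to 16. It was 1 and 0 within description numbers 1 to 8 and 9 to 16. Signs of single genes changed often, 50 results changing sign against 477 that kept it, and the cause was not tested. Tk1 was 0.040 with median scaling, 0.017 with the mean of probes, 0.010 within title numbers 9 to 16 and 0.051 within description numbers 1 to 8. Birc5 was -0.0068 with the mean of probes. With array weights Mcm4 was -0.011, Cenpa -0.024 and Top2a -0.0098. Without HeCo 7 and HeCo 16 Tyms was -0.055, Cdc20 -0.045, Cenpa -0.11, Birc5 -0.091 and Top2a -0.033. Within title numbers 1 to 8 Mcm4 was -0.024, Tyms -0.046, Uhrf1 -0.019, Cdk1 -0.053, Cdc20 -0.0092, Cenpa -0.054 and Birc5 -0.044. Within description numbers 1 to 8 Mcm4 was -0.029, Pcna -0.12 and Cenpa -0.029. With the region covariate, chosen after seeing the data, Tyms was -0.081, Uhrf1 -0.010, Cdc20 -0.081, Cenpa -0.15, Birc5 -0.10, Top2a -0.054 and Ckap2 -0.027. With 1 array left out, Tyms ran from -0.019 to 0.11, Tk1 from -0.067 to 0.023, Cdc20 from -0.0056 to 0.11, Cenpa from -0.036 to 0.083 and Birc5 from -0.054 to 0.066. The median of all 28 genes ran from 0.0091 (without HeCo 7) to 0.07, that of the S-phase genes from 0.04 to 0.09 and that of the G2/M genes from -0.01 (without HeCo 7) to 0.06. No paired analysis was possible because the title numbers are not shared between the genotypes. Signal over background limits Pcna and the 10 genes whose probes were detected on no array.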

Other observations

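Progenitor lists that could be the source of replication and mitosis transcripts gave no call in limma. Of 14 measured apical progenitor genes 12 had a negative difference (median -0.03) and 4 had an unadjusted p under 0.05, where 7.05% of all genes did. The Notch effectors Hes5 (-0.49, SE 0.10, limma adjusted p = 0.0804) and Hes1 (-0.37, SE 0.10, adjusted p = 0.269) had the smallest. Intermediate progenitor genes had a median of 0.06 over 9 genes, 1 of them under an unadjusted p of 0.05. There Sstr2, a receptor for somatostatin, had 0.24 (SE 0.09) and the proneural factor Neurog2 -0.20 (SE 0.14). Precursors of the ganglionic eminences had a median of 0.01 over 7 genes (1 under 0.05), with 0.27 (SE 0.13) for Sp8 and 0.11 (SE 0.08) for Dlx1. Those of the cerebellar granule layer had 0.08 over 5 genes (0 under 0.05), with -0.35 (SE 0.26) for Barhl1 and -0.14 (SE 0.13) for Meis1. Dentate precursors had 0.19 over 6 genes (2 under 0.05), with 0.36 (SE 0.11) for Tbr1 and 0.20 (SE 0.09) for Prox1. Oligodendrocyte precursors had 0.06 over 6 genes (2 under 0.05), with 0.26 (SE 0.08) for Sox10 and 0.23 (SE 0.10) for Pdgfra. The mean deviation in HeCo was 0.021 for the intermediate progenitor, 0.019 for the ganglionic eminence and -0.015 for the cerebellar list. It was -0.054, -0.082 and 0.077 without HeCo 7 and HeCo 16, against -0.021, -0.019 and 0.015 in wild type. The mean deviation of the apical progenitor list was -0.048 in HeCo, -0.081 without these arrays and 0.048 in wild type. The dentate list had 0.049, 0.060 and -0.049 and the oligodendrocyte list 0.039, 0.062 and -0.039, in the same order.

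Lists of other cell types held 0 genes past the threshold of limma. The median was 0.17 for the meninges (6 of 7 genes positive), with 0.29 (SE 0.12) for Ogn and 0.21 (SE 0.10) for Dcn, and 1 gene had an unadjusted p under 0.05. Microglia had 0.07 (6 of 8 positive), with 0.14 (SE 0.08) for Fcrls and 0.12 (SE 0.11) for P2ry12. Endothelium had 0.0015 (4 of 7 positive), with 0.17 (SE 0.11) for Cdh5 and -0.05 (SE 0.08) for Emcn. Erythroid cells, which divide in fetal blood, had -0.0013 (2 of 6 positive), with -0.21 (SE 0.13) for Slc4a1 and 0.18 (SE 0.25) for Hbb-y. Postmitotic neurons had -0.0042 (3 of 7 positive), with 0.13 (SE 0.07) for Dcx and -0.10 (SE 0.08) for Gap43. In these 4 lists 0 genes had an unadjusted p under 0.05. The cortical list had a median of 0.16 (6 of 6 positive, 2 under 0.05), with 0.33 (SE 0.09) for Lhx2 and 0.36 for Tbr1, which is also in the dentate list. The diencephalon, midbrain and hindbrain list had -0.62 (0 of 21 positive, 5 under 0.05), with -0.71 (SE 0.23) for Avp and -0.62 (SE 0.23) for Hoxb2. Both of these lists changed without HeCo 7 and HeCo 16, and so did others. The mean deviation of the diencephalon, midbrain and hindbrain list was -0.28 in HeCo, 0.19 in HeCo without these arrays and 0.28 in wild type. That of the cortical list was 0.10, -0.01 and -0.10 in the same order. For the meninges it was 0.07, 0.03 and -0.07, and for microglia 0.03, -0.01 and -0.03. The endothelium had 0.0069, 0.0048 and -0.0069, erythroid cells 0.0019, 0.012 and -0.0019, and postmitotic neurons 0.0020, 0.027 and -0.0020.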
